A study of Mus musculus with 2 samples.

Results

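The genes examined here encode the proteins that fuse mitochondria, divide them and mark them for removal by mitophagy, the selective uptake of mitochondria into autophagosomes. They were taken by symbol and are Mfn1, Mfn2 and Opa1 for fusion, Dnm1l, Fis1 and Mff for fission, and Pink1, Bnip3, Bnip3l and Fundc1 for mitophagy, 10 of the 55536 annotated genes in the deposited gene tables. Total RNA was sequenced from hearts of male B6CASTF1/J mice aged 10 days, first-generation hybrids of a B6 and a CAST mouse. There was 1 group of 2 libraries, replicate 2 and replicate 1, each made from 300 ng of RNA after reduction of ribosomal RNA, with strand kept and ERCC control RNAs added. The labels number the males separately but give both the same donor record, so every SD below is the spread between these 2 samples. No treatment, stage or genotype was contrasted, and the data give levels, transcript composition and the difference between the libraries.

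Mitochondria of heart muscle cells form a network whose outer membranes are joined by the mitofusins and whose inner membranes are joined by Opa1. Division is carried out by the dynamin-related protein encoded by Dnm1l, which is drawn to the outer membrane by receptors such as Mff. Damaged mitochondria are marked by the kinase Pink1, while Bnip3, Bnip3l and Fundc1 are outer-membrane receptors that bind ATG8 proteins of the autophagosome directly. In the mouse heart, mitochondria are remodelled after birth as the tissue turns to fatty acids for fuel, and Pink1 and Mfn2 have been tied to that change.

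Expected counts totalled 37907585 for replicate 2 and 38851514 for replicate 1. Cardiomyocyte markers were abundant, with a summed level of 27164 TPM (a length- and depth-scaled transcript abundance) in replicate 2 and 29422 TPM in replicate 1 and all 6 markers detected. Replicate 2 had far less RNA of atrial genes, with a sum of 269 TPM over 5 markers against 1504 TPM in replicate 1, and all 5 were over 2-fold lower. Brown fat and adipocyte markers summed to 686 TPM in replicate 2 and 1207 TPM in replicate 1, of which Cox8b, a gene that heart muscle also expresses, made up 654 and 786 TPM. Ucp1, the uncoupling protein of brown fat, was at 5.02 TPM in replicate 2 and 239 TPM in replicate 1. The libraries thus stood apart in atrial and fat RNA, and fewer cells of a type and less RNA per cell cannot be told apart in bulk RNA.

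All 10 genes were detected, at 1 TPM or more in both libraries. Their median level was 68.1 TPM in replicate 2 and 78.6 TPM in replicate 1 (73.4 ± 7.42 TPM, SD, n = 2), beside 10.4 TPM over the 11546 detected protein-coding genes. The levels ran from 232 ± 16.5 TPM for Mfn2 to 10.0 ± 0.580 TPM for Fundc1, and 9 of the 10 genes lay between the 85.5th and 97.7th percentile of detected coding genes. Fundc1, at the 48.8th percentile, was the exception. In the other deposited quantification, made directly from the reads, all 10 were again detected and the median was 86.6 TPM.

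**Figure D1:**
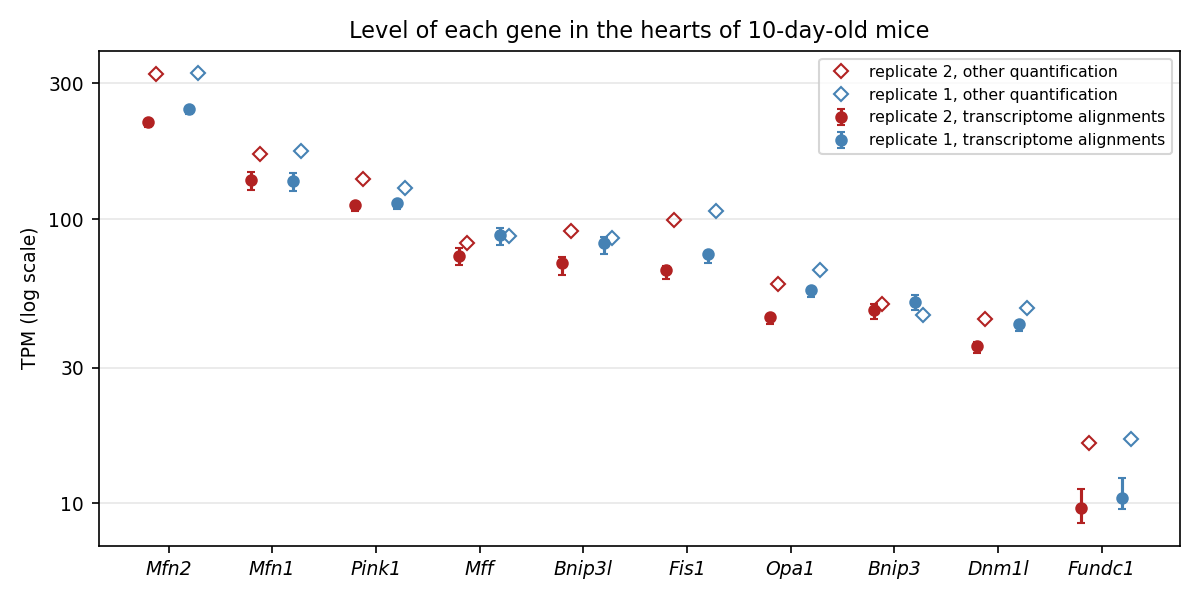
Level of each gene in TPM on a log axis, for replicate 2 on the left and replicate 1 on the right of each pair. Filled points are from transcriptome alignments with the authors' deposited credibility bounds as bars, and open diamonds are the other quantification. Mfn2 leads in both at 232 ± 16.5 and 324 ± 2.18 TPM, and Fundc1 is lowest at 10.0 ± 0.580 and 16.6 ± 0.438 TPM (SD, n = 2).

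Among the fusion genes, the mitofusins were the most abundant members of the whole set. Mfn2 (chromosome 4, 147873599 to 147904704, minus strand, mm10) encodes the mitofusin that also sits where mitochondria touch the endoplasmic reticulum, and it was listed at 220.1 TPM in replicate 2 and 243 TPM in replicate 1. Its paralog Mfn1 (chromosome 3, 32529465 to 32579239, plus strand), the mitofusin with the stronger tethering activity, was at 137 TPM in replicate 2 and 136 TPM in replicate 1 (137 ± 0.856 TPM). Opa1 (chromosome 16, 29579334 to 29654884, plus strand), the dynamin-like GTPase that fuses inner membranes and shapes cristae, was at 45.2 TPM in replicate 2 and 56.5 TPM in replicate 1 (50.8 ± 7.96 TPM). The mitofusins did not overlap each other or any other member in range. Together these 3 GTPases summed to 402 TPM in replicate 2 and 436 TPM in replicate 1, more than the 176 and 206 TPM of the fission genes in the same libraries.

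Most of the TPM of Mfn2 came from models that share their coding sequence. Mfn2-201 took 84.9% of the TPM of Mfn2 in replicate 2 and 88.1% in replicate 1, and its coding sequence of 2271 bases is identical to those of Mfn2-203 and Mfn2-204. Those 3 models together held 86.5% and 90.5% of the TPM of Mfn2, or 73.4% and 77.3% in the other quantification, replicate 2 given before replicate 1. The other quantification placed 24.2% and 21.7% on Mfn2-207, a model whose coding sequence is incomplete, against 6.05% and 7.23% by transcriptome alignments. Between these models the split moved with the quantification, while the shared coding sequence stayed in the lead.

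Mfn1 was spread over more models. Mfn1-201 and Mfn1-202 encode the same 2223-base coding sequence and differ in their 3′ untranslated regions, of 2101 and 215 bases. Mfn1-202 held 26.1% of the TPM in replicate 2 and 32.3% in replicate 1, and Mfn1-201 held 18.3% and 20.0%. By expected counts Mfn1-201, the longer model, led instead, with 46.2% in replicate 2 and 44.5% in replicate 1. Incomplete coding models held 28.5% and 29.0% of the TPM, and retained-intron models 27.1% and 18.7%. Complete coding models of Mfn1 therefore came to 60.9 TPM in replicate 2 and 71.1 TPM in replicate 1, less than the gene's total. On that measure Mfn1 ranked 4 of 10, or 3 by the other quantification, and its range overlapped that of Fis1 (62.6 TPM in replicate 2 and 73.9 TPM in replicate 1). The incomplete and retained-intron models of Mfn1 have 59.7% (Mfn1-207) to 100% (Mfn1-206) of their bases in exons of complete coding models. Reads there can be assigned to either kind of model. By expected counts complete coding models of Mfn1 held 85.9% in replicate 2 and 87.7% in replicate 1.

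Opa1 is known for alternative exons that change how its protein is cut by proteases. Opa1-206, the model that lacks both of the exons shown here, held 55.9% of the TPM of Opa1 in replicate 2 and 52.0% in replicate 1. The sequences are those of GENCODE M21 transcripts on mm10, plus strand, 5′ to 3′, with the alternative exon in capitals and 15 bases of the neighbouring exons in lower case. They are shown because they separate the Opa1 models that were measured. The shorter, at chr16:29588823-29588876, has 54 bases, and the longer, at chr16:29597586-29597696, has 111 bases. In human and mouse OPA1 the longer exon carries a cleavage site for the protease YME1L.
Opa1 exon of 54 bases: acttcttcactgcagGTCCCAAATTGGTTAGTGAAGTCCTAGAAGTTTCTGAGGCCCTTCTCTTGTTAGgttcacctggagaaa
Opa1 exon of 111 bases: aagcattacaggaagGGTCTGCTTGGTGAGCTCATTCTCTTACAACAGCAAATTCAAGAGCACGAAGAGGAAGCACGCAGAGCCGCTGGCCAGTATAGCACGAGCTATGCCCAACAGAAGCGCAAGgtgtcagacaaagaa

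The 54-base exon was present in 16.1% of the TPM of spanning Opa1 models in both replicate 2 and replicate 1, and in 20.6% and 20.2% by the other quantification. The longer exon was present in 42.1% in replicate 2 and 46.0% in replicate 1, and in 36.5% and 39.2% by the other quantification. Both exons were thus in the minority of spanning models in either library. The estimate for the 111-base exon rests on Opa1-207 and a shorter model, both with incomplete coding sequences, since no complete model of this annotation carries it. Complete models alone gave the 54-base exon 0.785% in replicate 2 and 2.07% in replicate 1, against 20.95% and 22.8% for complete models in the other quantification, so its level was not fixed by these tables.

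Of the fission genes, Mff stood highest by transcriptome alignments. Mff (chromosome 1, 82724890 to 82752394, plus strand), the main outer-membrane receptor for the dynamin, was at 74.4 TPM in replicate 2 and 87.7 TPM in replicate 1 (81.0 ± 9.42 TPM). Fis1 (chromosome 5, 136953275 to 136966234, plus strand), a small tail-anchored protein of the outer membrane, was at 66.0 TPM in replicate 2 and 75.1 TPM in replicate 1 (70.6 ± 6.43 TPM). Their ranges overlapped. Dnm1l (chromosome 16, 16312230 to 16358959, minus strand), the GTPase that constricts the membrane, was at 35.9 TPM in replicate 2 and 42.9 TPM in replicate 1 (39.4 ± 4.97 TPM), below both of them in each library. Mff over Fis1 was 0.17 in replicate 2 and 0.22 in replicate 1 as a log2 ratio of TPM, but -0.27 and -0.30 in the other quantification, where Fis1 was higher at 103 ± 5.46 TPM. Complete coding models alone, by transcriptome alignments, also put Fis1 above Mff, at 62.6 against 39.1 TPM in replicate 2 and 73.9 against 43.1 TPM in replicate 1. The order of Mff and Fis1 thus turned with the quantification and with the models counted.

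Dnm1l is spliced into forms that differ in a loop of the GTPase domain and in the variable domain, which binds membrane lipid. Dnm1l-201, which skips all 3 alternative in-frame exons, led with 42.7% of the TPM in replicate 2 and 39.6% in replicate 1. Dnm1l-202 held 18.7% and 20.0%, and Dnm1l-203 held 18.5% and 17.0%. The exons that tell these models apart are given from GENCODE M21 (mm10, minus strand, 5′ to 3′, exon in capitals, 15 flanking bases in lower case). The 39-base exon at chr16:16342697-16342735 lies in the GTPase domain. The 78-base exon at chr16:16318764-16318841 and the 33-base exon at chr16:16318445-16318477 lie in the variable domain, where they follow each other.
Dnm1l exon of 39 bases: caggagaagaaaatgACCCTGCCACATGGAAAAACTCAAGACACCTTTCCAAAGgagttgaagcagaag
Dnm1l exon of 78 bases: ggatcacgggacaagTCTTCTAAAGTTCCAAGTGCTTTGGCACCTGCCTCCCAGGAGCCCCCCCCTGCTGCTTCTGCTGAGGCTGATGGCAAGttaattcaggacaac
Dnm1l exon of 33 bases: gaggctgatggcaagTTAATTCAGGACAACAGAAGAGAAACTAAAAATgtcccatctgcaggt

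The GTPase-domain exon of 39 bases was in 24.6% of spanning Dnm1l TPM in replicate 2 and 25.6% in replicate 1, and in 26.3% and 24.6% by the other quantification. The 33-base exon was in 31.1% in replicate 2 and 32.4% in replicate 1, but in 49.5% and 49.0% by the other quantification. The 78-base exon was in 20.7% in replicate 2 and 19.3% in replicate 1, and in 31.2% and 24.9% by the other quantification. Inclusion of the GTPase-domain exon differed by less than 2 percentage points over the 4 estimates, while the 33-base exon moved more between quantifications than between libraries. For the 78-base exon the difference between libraries in the other quantification was as large as that between quantifications in replicate 1.

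Mff had the most models of any member, 16, and no leading transcript. The highest shares by transcriptome alignments were 15.7% in replicate 2, for Mff-202, and 17.5% in replicate 1, for the incomplete Mff-204, while Mff-201 led by the other quantification with 23.6% and 23.7%. Its alternative coding exons sit between the N-terminal part that binds the dynamin and the coiled coil near the membrane anchor. The exons of 75 bases (chr1:82737013-82737087), 159 bases (chr1:82741818-82741976) and 60 bases (chr1:82747083-82747142) were each included in some measured models and skipped in others (GENCODE M21, mm10, plus strand, same notation).
Mff exon of 75 bases: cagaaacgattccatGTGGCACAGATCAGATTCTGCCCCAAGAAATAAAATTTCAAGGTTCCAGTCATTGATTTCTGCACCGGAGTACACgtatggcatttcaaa
Mff exon of 159 bases: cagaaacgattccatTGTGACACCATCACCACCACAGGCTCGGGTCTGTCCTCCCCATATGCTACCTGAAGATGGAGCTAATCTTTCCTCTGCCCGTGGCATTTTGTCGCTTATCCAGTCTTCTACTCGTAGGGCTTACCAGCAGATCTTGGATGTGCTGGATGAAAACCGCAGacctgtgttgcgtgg
Mff exon of 60 bases: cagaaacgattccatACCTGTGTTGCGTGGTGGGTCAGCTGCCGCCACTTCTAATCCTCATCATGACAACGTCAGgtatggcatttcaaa

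The 75-base exon was in 18.3% of spanning Mff TPM in replicate 2 and 13.8% in replicate 1, and in 25.4% and 21.8% by the other quantification. The 159-base exon was in 40.0% in replicate 2 and 31.8% in replicate 1, and in 53.0% and 43.0% by the other quantification. The 60-base exon was in 71.6% in replicate 2 and 67.4% in replicate 1, and in 88.5% and 81.2% by the other quantification. In both quantifications each of these exons had the higher inclusion in replicate 2 over all coding models. With complete coding models alone, the 60-base exon was at 86.9% in replicate 2 and 87.6% in replicate 1 by transcriptome alignments. On the same measure the 159-base exon was at 56.2% in replicate 2 and 46.8% in replicate 1. The 75-base exon was then at 26.4% and 20.3%. The values carry no interval because they are sums of estimated TPM. Mff-212, the model with the longest complete coding sequence (948 bases), held 13.9% in replicate 2 and 8.84% in replicate 1.

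**Figure D2:**
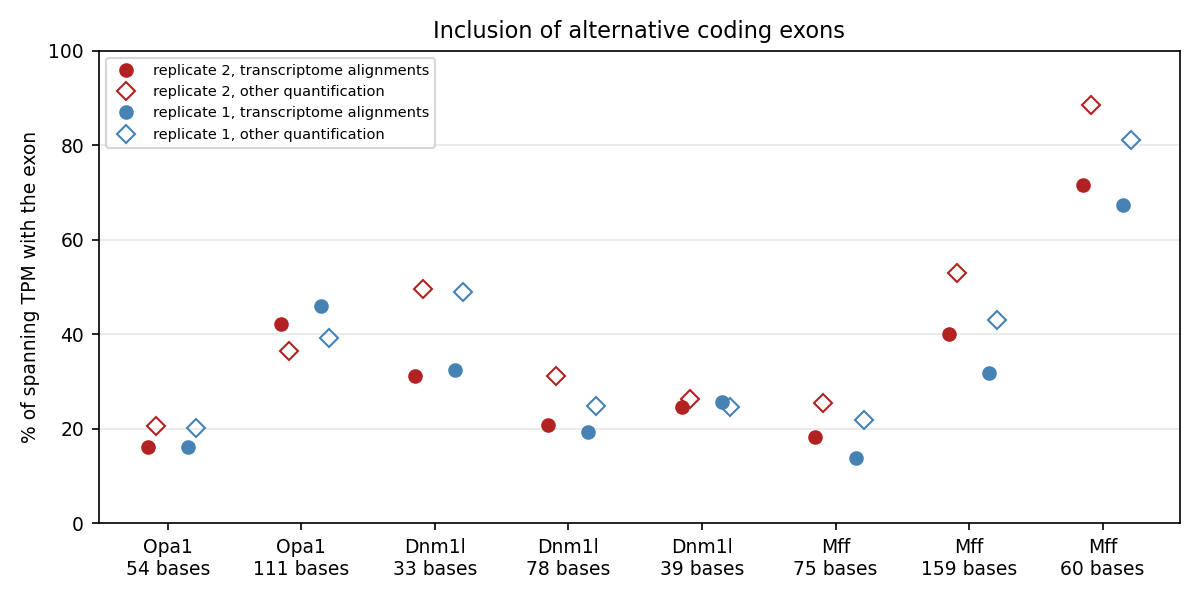
Share of the TPM of spanning models that includes each alternative in-frame coding exon of Opa1, Dnm1l and Mff, in percent, replicate 2 left of replicate 1. Filled points are from transcriptome alignments and open diamonds from the other quantification. The 33-base exon of Dnm1l differs most between quantifications and little between libraries, at 31.1% and 32.4% by transcriptome alignments and 49.5% and 49.0% by the other.

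Among the mitophagy genes Pink1 was the highest in each library. Pink1 (chromosome 4, 138313409 to 138326307, minus strand), the kinase that accumulates on depolarised mitochondria and phosphorylates ubiquitin, was at 112 TPM in replicate 2 and 114 TPM in replicate 1 (113 ± 1.24 TPM). The receptor Bnip3l, also called Nix and known for clearing mitochondria from maturing red cells (chromosome 14, 66985239 to 67008877, minus strand), was at 70.3 TPM in replicate 2 and 82.2 TPM in replicate 1 (76.2 ± 8.41 TPM). Its paralog Bnip3, a target of hypoxia-inducible factor (chromosome 7, 138890836 to 138909519, minus strand), was at 47.7 TPM in replicate 2 and 51.3 TPM in replicate 1 (49.5 ± 2.51 TPM). Fundc1, a receptor regulated by phosphorylation in low oxygen (chromosome X, 17556564 to 17572325, minus strand), was at 9.63 TPM in replicate 2 and 10.4 TPM in replicate 1. The 3 receptors summed to 128 TPM in replicate 2 and 144 TPM in replicate 1.

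The paralogs Bnip3l and Bnip3 changed order when only complete coding models were counted. At the gene level the log2 ratio of TPM, Bnip3l over Bnip3, was 0.56 in replicate 2 and 0.68 in replicate 1, and it was 0.85 and 0.90 by the other quantification. Of the TPM of Bnip3l, however, 74.4% in replicate 2 and 80.2% in replicate 1 was assigned to models annotated as processed transcripts without a coding sequence. Bnip3l-205, of 789 bases, led with 41.4% in replicate 2 and 42.8% in replicate 1, and with 47.8% and 52.4% by the other quantification. Complete coding models of Bnip3l came to 17.6 TPM in replicate 2 and 15.9 TPM in replicate 1, those of Bnip3 to 45.2 and 50.5 TPM. On that measure Bnip3l ranked 9 of 10 in both quantifications, whereas its gene total ranked 5.

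These short Bnip3l models share most of their bases with the coding ones. Of the bases of Bnip3l-205, 95.9% lie in exons of complete coding models. For Bnip3l-204, Bnip3l-206 and Bnip3l-207 the shares are 94.1%, 76.7% and 81.3%. Reads in those exons can be assigned to either kind of model. By expected counts the coding Bnip3l-201, with 3238 bases, led with 57.3% in replicate 2 and 54.9% in replicate 1, while Bnip3l-205 held 24.0% and 28.7%. The authors' deposited bounds on the TPM of Bnip3l-205 ran from 25.5 to 31.6 in replicate 2 and from 31.2 to 37.7 in replicate 1, clear of those of Bnip3l-201 (13.1 to 16.4 and 12.9 to 15.6).

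The other mitophagy genes were read mainly from coding models. Bnip3-201 held 84.6% of the TPM of Bnip3 in replicate 2 and 82.8% in replicate 1. Pink1-201, with the full coding sequence of 1740 bases, held 77.1% and 78.2%, and Pink1-202, with a coding sequence of 504 bases, held 22.9% and 21.8%. For Fundc1 the leading model turned with the quantification. Fundc1-201 held 65.4% in replicate 2 and 65.9% in replicate 1 by transcriptome alignments, while Fundc1-205, with a shorter coding sequence of 336 bases, held 57.7% and 56.6% by the other quantification. Fis1 kept Fis1-201 in the lead, at 89.8% in replicate 2 and 93.4% in replicate 1, but at 54.4% and 56.4% by the other quantification, which gave 26.4% and 17.5% to Fis1-202 and 18.1% and 25.5% to the noncoding Fis1-205.

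**Figure D3:**
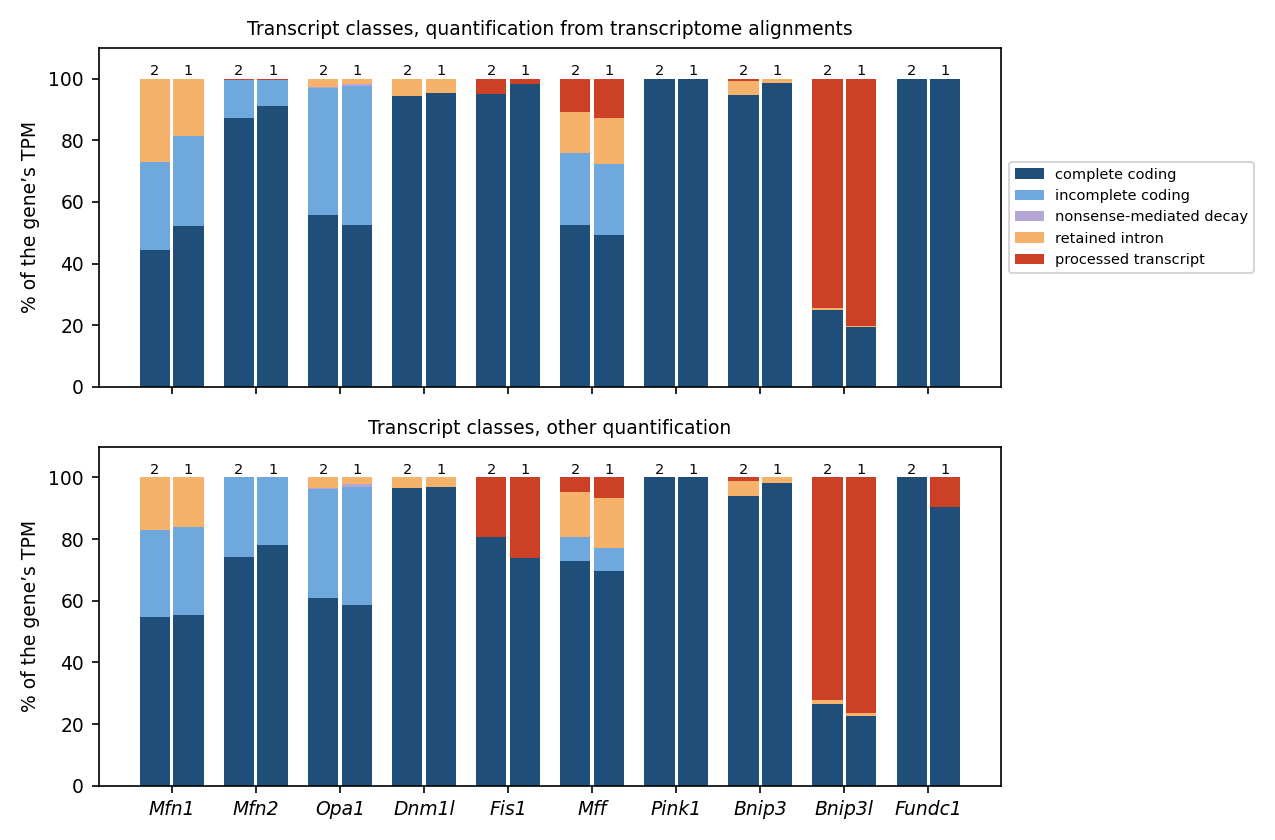
Share of each gene's TPM in percent by class of transcript model, with the bar for replicate 2 left of that for replicate 1 and the quantifications in separate panels. By transcriptome alignments, processed transcripts take 74.4% and 80.2% of Bnip3l, beside 10.7% and 12.9% of Mff. Incomplete coding models are prominent there in Mfn1, Opa1 and Mff. In the other quantification incomplete coding models hold 7.80% and 7.61% of Mff and 25.7% and 21.9% of Mfn2. Processed transcripts there take 19.2% and 26.1% of Fis1.

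Counted over all 10 genes, the leading transcript was the same in both libraries for 9, with Mff the exception. It was the same in both quantifications for 8, with Mff and Fundc1 the exceptions, and the same by counts as by TPM for 7. Some reads of these genes also match other loci. Of the 31-base words of Bnip3l-201, 28.5% occur in its pseudogene Bnip3l-ps, which had 10.9 expected counts in replicate 2 and 16.8 in replicate 1. Of those of Bnip3-201, 26.6% occur elsewhere, mainly in the pseudogene Gm16439. This pseudogene had 162 counts in replicate 2 and 195 in replicate 1 beside 2265 and 2286 for Bnip3. In TPM it was at 10.9 in replicate 2 and 13.9 in replicate 1, beside 47.7 and 51.3 for Bnip3. The level of Bnip3 is the more uncertain for it. Dnm1l-201 shared 8.06% of its words, mostly with Gm13719, which had 0 counts, and Pink1-201 shared 3.41% with Gm27646, also at 0 counts. Mfn1-201 shared 0.816%, and Mfn2-201, Opa1-206, Fis1-201, Mff-202 and Fundc1-201 shared none. The sources do not say if reads were counted by strand, and the opposite-strand genes overlapping Mff, Dnm1l and Bnip3 had at most 9 counts in either library. Gm28941, which lies in an intron of Mff on the same strand, had 61 counts in replicate 2 and 54 in replicate 1.

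Of 7 ratios between members compared within each heart, 4 were over 2-fold in both libraries by transcriptome alignments and 3 by the other quantification. Pink1 over Bnip3 was 1.23 in replicate 2 and 1.15 in replicate 1 as a log2 ratio of TPM, and Fundc1 over Bnip3 was -2.30 and -2.28. Opa1 over Mfn2 was -2.28 in replicate 2 and -2.11 in replicate 1, and Dnm1l over Mff was -1.05 and -1.03, but -0.88 and -0.84 by the other quantification. Complete coding models alone gave Dnm1l 33.8 TPM in replicate 2 and 40.8 TPM in replicate 1, and Mff 39.1 and 43.1 TPM. These ratios place Pink1 above the receptor Bnip3 and Opa1 below the outer-membrane mitofusin in each heart. By gene totals Mfn2 over Mfn1, at 0.68 in replicate 2 and 0.84 in replicate 1 (0.76 ± 0.11), stayed under 2-fold. So did Bnip3l over Bnip3 and Mff over Fis1. On complete coding models alone, Mfn2 was at 192 and 222 TPM, over 2-fold above Mfn1 at 60.9 and 71.1 TPM. Bnip3l, at 17.6 and 15.9 TPM, was then over 2-fold below Bnip3, at 45.2 and 50.5 TPM. Those values are from transcriptome alignments, replicate 2 given before replicate 1. Neighbours in the order of levels whose ranges overlapped were Mff and Bnip3l, Bnip3l and Fis1, and Opa1 and Bnip3. No test was run on these ratios, since an exact two-sided sign-flip test over 2 libraries cannot give a p below 0.5.

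Between the libraries the 10 genes differed little. Expected counts scaled with TMM factors gave a median log2 ratio, replicate 2 over replicate 1, of 0.05 for the members and 0.01 for the 16741 genes with a mean count of at least 10, whose quartiles were -0.15 and 0.18. No member was over 2-fold, against 3.90% of all genes tested in either direction. The exact 95% Clopper-Pearson interval of the ratio, which covers counting error only, left out 1 for 7 members. Of these, 6 were higher in replicate 2, against 19.5% of all genes tested, and 1 was lower, against 17.9%. Among the 7465 genes within the members' range of counts, 27.1% were higher and 24.7% lower. There was 1 library on each side, so the difference has no replicate check, and edgeR put the biological coefficient of variation at 0.147 over 16166 genes, beside a largest member ratio of 1.16-fold.

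The mitophagy genes Pink1 and Bnip3l had the largest ratios. Pink1, with 7424 expected counts for replicate 2 and 7148 for replicate 1, was 1.15-fold higher, a log2 ratio of 0.20 (interval 0.15 to 0.24). Bnip3l, with 2679 counts for replicate 2 and 2555 for replicate 1, was 1.16-fold higher, a log2 ratio of 0.21 (0.13 to 0.29). These lay just above the upper quartile of all genes. Bnip3, with 2265 counts in replicate 2 and 2286 in replicate 1, had a log2 ratio of 0.13 (0.04 to 0.21). Fundc1, with 460 and 493 counts, had a log2 ratio of 0.04 and an interval that held 0, from -0.15 to 0.23. A log2 ratio as small as 0.04 could not be told from 0 at the depth of Fundc1.

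Opa1 was the 1 member that was lower in replicate 2, with 6395 counts against 7380 in replicate 1 and a log2 ratio of -0.07 (-0.11 to -0.02). The mitofusins were close to equal. Mfn1 had 7769 counts for replicate 2 and 8256 for replicate 1, with log2 ratio 0.05 (0.01 to 0.10), and Mfn2, the most deeply counted member, had 26494 and 28708, a log2 ratio of 0.03 (0.00148 to 0.0498). Mff had 3058 counts for replicate 2 and 3197 for replicate 1, with log2 ratio 0.08 (0.01 to 0.15). Dnm1l (3994 and 4404 counts, log2 ratio 0.00) and Fis1 (1450 and 1560 counts, log2 ratio 0.04) had intervals that held 0.

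Which members differed depended on the scaling. Pink1 and Bnip3l higher and Opa1 lower were called with TMM, DESeq2 size factors, total counts and ERCC totals and in the other quantification. With total counts, which shift the median of all genes to -0.10, 2 members were higher and 4 lower, beside 10.7% higher and 32.6% lower of all genes tested. With ERCC totals 2 were higher and 3 lower, beside 13.0% and 27.2% of all genes tested. The calls for Mfn1, Mfn2 and Mff did not hold in DESeq2 scaling. Mfn1 and Mfn2 were called lower under total counts, and Mfn2 also under ERCC totals. Mfn1 under ERCC totals and Mff under total counts changed sign without a call. The call for Bnip3 was lost under total counts (0.0220) and ERCC totals (0.0574). Dnm1l, Fis1 and Fundc1, whose intervals held 0 with TMM, also had ratios below 0 under total counts and ERCC totals. Because a scaling shifts all genes alike, the members' median stayed 0.04 above that of all genes under each of the 4 scalings.

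Deposited TPM gave another picture, since 9 of the 10 genes had a lower TPM in replicate 2, Mfn1 being the exception. The median log2 ratio of TPM was -0.17 for the members and -0.21 for 16714 genes, so the members moved with the whole table. For Bnip3l the ratio of TPM was -0.23, opposite in sign to its ratio of counts, and its effective length was 1190 bases in replicate 2 and 1029 bases in replicate 1. In the other quantification the TPM of Pink1, Bnip3 and Bnip3l was higher in replicate 2, with log2 ratios of 0.10, 0.13 and 0.08, and that of the other 7 was lower. The median log2 ratio of this TPM was -0.04 for the members and -0.07 for 16337 genes.

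**Figure D4:**
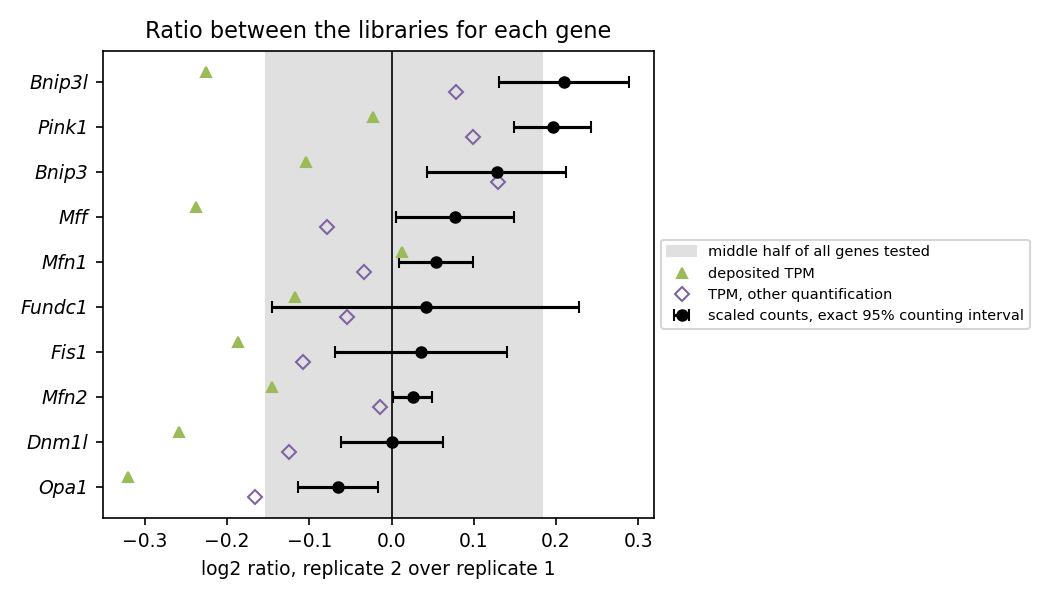
Log2 ratio of replicate 2 over replicate 1 for each gene, ordered by scaled counts. Black points are scaled counts with exact 95% counting intervals, triangles deposited TPM, open diamonds TPM of the other quantification, and the grey band the range between the quartiles of all genes tested (-0.15 to 0.18). Bnip3l and Pink1 lie at 0.21 and 0.20 by counts, and triangles lie left of 0 for 9 of 10 genes.

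Related genes from 6 lists were examined beside the members. Of 76 genes, 71 were detected and 73 had enough counts for a ratio. Of these 16 (21.9%) were higher in replicate 2, 20 (27.4%) were lower and 37 had intervals holding 0, with none over 2-fold and a median log2 ratio of -0.0040. The list shares are read against the 19.5% and 17.9% of all genes.

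Of 12 regulators of fusion, 1 was higher and 2 were lower in replicate 2. The list was led by the prohibitins Phb2 (153 ± 18.9 TPM) and Phb (131 ± 13.1 TPM), scaffolds of the inner membrane, and by Afg3l2 (55.0 ± 6.49 TPM), a subunit of an inner-membrane protease. Pld6, a mitochondrial phospholipase that aids fusion, was below 1 TPM, at 0.36 TPM in replicate 2 and 0.78 TPM in replicate 1. The median log2 ratio was -0.02 with TMM, where that of all genes was 0.01. With DESeq2 size factors 1 was higher and 4 were lower. Total counts gave 0 higher and 8 lower, and ERCC totals 0 higher and 6 lower. Of all genes tested, 10.7% were higher and 32.6% lower under total counts, and 13.0% and 27.2% under ERCC totals. The list's median under total counts was -0.13, where that of all genes was -0.10.

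Of 13 fission partners with enough counts, 7 were lower in replicate 2 and none was higher. The median log2 ratio was -0.11. The highest were Mtfr1l (59.2 ± 10.4 TPM), a regulator of fission, March5 (35.1 ± 6.62 TPM), a ubiquitin ligase of the outer membrane, and Dnm2 (34.6 ± 4.27 TPM), a dynamin. Mtfr1l had a log2 ratio of -0.10 and March5 of -0.18, while the interval of Dnm2 held 0. Gdap1, a fission factor of neurons, had 4 counts in each library. With none higher under any of the other 3 scalings or in the other quantification, the number lower ranged from 7 to 9. Of the fission members, none was lower with TMM, and Dnm1l was lower with total counts and ERCC totals.

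In the list of the PINK1 arm, 3 of 12 genes were higher and 2 lower. The autophagy adaptor Sqstm1 was highest at 102 ± 2.06 TPM with a log2 ratio of 0.17, followed by Park7 (77.7 ± 10.6 TPM), a redox-sensitive protein, and the adaptor Nbr1 (52.7 ± 15.4 TPM). Nbr1 had a log2 ratio of 0.80 (0.74 to 0.85), the largest of the 73 listed genes with enough counts, with 63.6 TPM in replicate 2 and 41.8 TPM in replicate 1. Calcoco2, an adaptor for mitophagy in human cells, had 0 counts in both libraries, which allows up to 0.0791 CPM in replicate 2 and 0.0772 CPM in replicate 1.

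Of 12 other mitophagy receptors and regulators, 4 were higher and 1 was lower with TMM. Total counts gave 3 higher and 5 lower, and ERCC totals 3 higher and 4 lower. Nipsnap2, a mitochondrial protein that binds autophagy adaptors, was at 243 ± 4.95 TPM, above every member in either library by transcriptome alignments, with a log2 ratio of 0.18. The receptor Fkbp8 (72.4 ± 7.09 TPM) and the kinase subunit Csnk2b (68.7 ± 11.0 TPM) had intervals that held 0. Nipsnap1 was under 1 TPM in replicate 2, at 0.93, and at 1.08 TPM in replicate 1. Its paralog Nipsnap2 was thus the main one read in these hearts.

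Of 13 ATG8 and autophagosome genes, 6 were higher in replicate 2 and none was lower. The median log2 ratio was 0.11. The ATG8 genes Map1lc3a (252 ± 27.7 TPM) and Gabarap (107 ± 10.9 TPM) had intervals that held 0, while Map1lc3b (77.6 ± 2.95 TPM) had a log2 ratio of 0.26. Total counts, which shift all genes alike, gave 2 higher and 3 lower, and ERCC totals 3 higher and 2 lower. The list's median under total counts was 0.01, where that of all genes was -0.10.

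Bnip3 and Bnip3l are themselves known as targets of hypoxia-inducible factor, and other such targets were listed beside them. Of 11 with enough counts, 8 were lower and 2 higher in replicate 2 (median log2 ratio -0.13), and the counts were 8 and 2 under all 4 scalings and in the other quantification. The glycolytic enzymes Ldha (338 ± 55.1 TPM) and Pgk1 (225 ± 32.4 TPM) had log2 ratios of -0.12 and -0.07, and the growth factor Vegfa (97.4 ± 1.44 TPM) had 0.21. Car9, a carbonic anhydrase, was at 0.13 TPM in replicate 2 and 0.33 TPM in replicate 1.

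**Figure D5:**
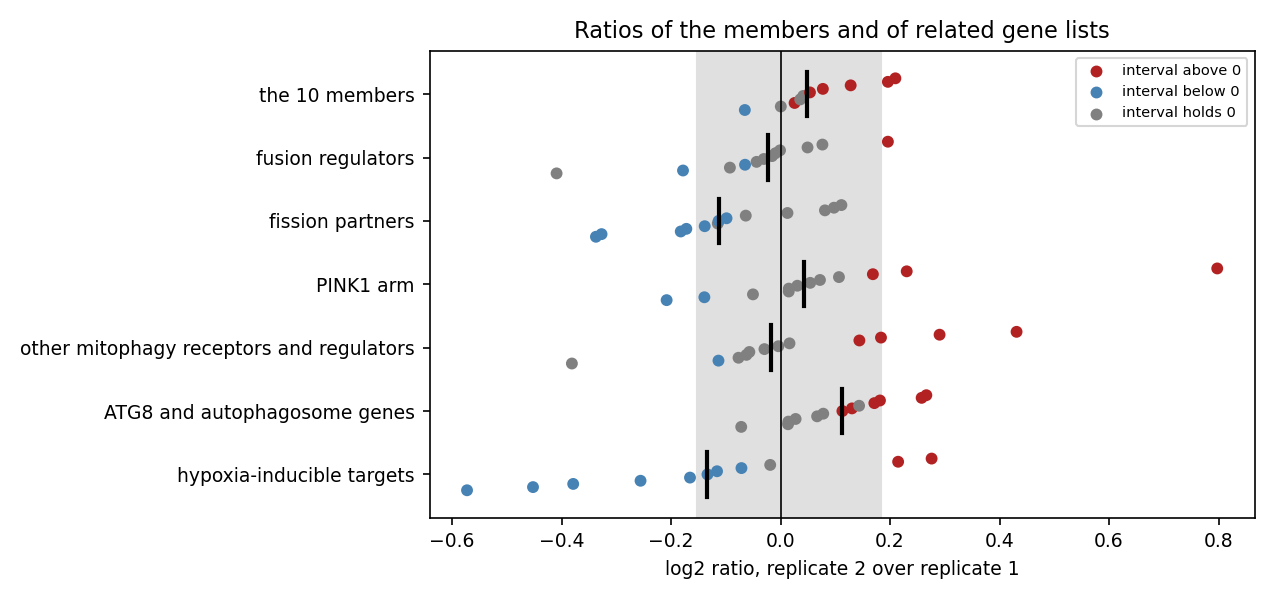
Log2 ratio of replicate 2 over replicate 1 for the 10 members and for each gene with enough counts in 6 related lists. Red points have counting intervals above 0, blue points below 0 and grey points hold 0, the black bars are medians and the grey band lies between the quartiles of all genes tested. Medians run from -0.13 for the hypoxia-inducible targets to 0.11 for the ATG8 and autophagosome genes.

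Markers of most other cell types differed between the libraries. The counts below stand beside 19.5% higher and 17.9% lower of all genes tested. Erythroid markers were higher in replicate 2 for 7 of 9 genes by scaled counts, with a median log2 ratio of 0.39. Their summed level was 12955 TPM in replicate 2 and 12076 TPM in replicate 1, led by the globin genes Hbb-bs and Hba-a1. Cardiomyocyte markers were higher in replicate 2 for 5 of 6 genes by scaled counts, with a median log2 ratio of 0.15. Total counts and ERCC totals each gave 4 higher and 2 lower. Their medians were then 0.04 and 0.08, where those of all genes were -0.10 and -0.06. In deposited TPM their sum was lower in replicate 2, as given above. Fibroblast markers were lower for 5 of 5, with 1048 TPM in replicate 2 and 1666 TPM in replicate 1, smooth muscle markers for 4 of 4 (195 and 310 TPM) and endothelial markers for 3 of 4 (259 and 325 TPM). Brown fat markers were lower for 6 of 7 and atrial markers for 5 of 5, at the levels given above, macrophage markers for 2 of 4 (17.3 and 29.2 TPM) and Schwann cell markers for 3 of 4 (3.14 and 11.1 TPM). No marker in these lists was at 0 in either library. Their part in the ratios of Pink1, Bnip3, Bnip3l and Opa1 was not tested.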

How the data were processed

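The 10 genes, the related gene lists and the marker lists were chosen with earlier results of these data known. The authors used mm10 and GENCODE M21, per the deposited notes, and quantified each library from transcriptome alignments and, separately, directly from reads. Programs and strand settings are not given in the sources used here. Expected counts, as deposited, are estimates and can be fractions. The authors' TPM and FPKM, per the file headers, are scaled for length and depth over all rows, and their credibility bounds on TPM are printed as deposited. Rows naming no annotated gene (26249, with 3 counts in replicate 2 and 3.89 in replicate 1) were left out. The reference represents B6, so reads of divergent CAST alleles may be undercounted.

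For the ratio of replicate 2 over replicate 1, expected counts were rounded, scaled by edgeR 4.0.16 TMM factors (R 4.3.3), given 0.5 and taken as log2, with exact 95% Clopper-Pearson intervals at a mean count of at least 10. Intervals and floors (3 counts) cover counting error only, since no molecular identifiers are described. Pair ratios added 0.1 TPM. Alternative coding exons are those of annotated models, with 10% to 90% inclusion, computed from transcript TPM by Python 3.11.15. Symbols come from GENCODE M21. The script was tested on simulated data. Alternatives were DESeq2 1.42.0 size factors, total counts, ERCC totals, FPKM, TPM over nuclear coding genes, the other quantification, another pseudocount and no count minimum. All members are named. Names of related genes come from the 3 highest of each list, those under 1 TPM and those over 2-fold, of markers from the 2 highest and up to 3 over 2-fold, and of transcripts from those with 10% of a gene's TPM. Pseudogenes and overlapping genes were named after their values were seen. An item of the related lists is not reported here.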

Additional observations from a re-analysis of the deposited data

How the results depend on the processing

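All 10 genes were detected under each alternative run. Their median level was 86.6 TPM by the other quantification, 59.4 by FPKM and 182 TPM when TPM was rescaled to nuclear protein-coding genes. The number of members whose counting interval left out 1 was 4 with DESeq2 size factors and 4 by the other quantification, against 7 with TMM. In each of those 2 alternatives 3 members were higher and 1 lower. Of all genes tested, 17.1% were higher and 20.5% lower with DESeq2 size factors, and 17.0% and 19.3% by the other quantification. Their median log2 ratio was -0.0585 with total counts, -0.0231 with ERCC totals and -0.17 with deposited TPM, an alternative chosen after seeing the data. Of the called ratios, those that changed sign were Mfn1 (-0.0524 with total counts, -0.0170 with ERCC totals), Mfn2 (-0.0805 and -0.0451 with the same, -0.00625 by the other quantification and -0.15 with deposited TPM) and Mff (-0.0288 with total counts, -0.24 with deposited TPM), and with deposited TPM those of Pink1 (-0.0224), Bnip3 (-0.10) and Bnip3l (-0.23). Among the ratios whose intervals held 0, Fis1 was at -0.0702, -0.0348 and -0.19 and Fundc1 at -0.0646, -0.0292 and -0.12 with total counts, ERCC totals and deposited TPM in turn. Dnm1l was at -0.11, -0.0703 and -0.26 with these, -0.0220 with DESeq2 size factors and -0.0223 by the other quantification. The cause was not tested. Leaving out either replicate left 10 members detected, 4 ratios over 2-fold and 6 genes whose leading transcript held most of the TPM. By the other quantification these were 3 ratios and 4 genes, and by share of expected counts 7 genes. No paired analysis was possible because there is only 1 group. Depth limits Fundc1 most among the members.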
